A study of Homo sapiens with 7 samples.

Results

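The miR-130, miR-301 and miR-454 family is a group of microRNAs that carry one seed, the short stretch at the 5′ end of a microRNA that pairs with its target messenger RNAs. The assays of miR-130a, miR-130b, miR-301a, miR-301b and miR-454 were taken by name from TaqMan quantitative PCR cards, 5 of the 377 microRNA assays of each card. They were measured in 7 lung derivative lines of MDA-MB-435-GFP, an established human tumor cell line that stably expresses green fluorescent protein. The 3 L1-R2 lines (4T, 3T and 8T) produce oligometastases, few lung metastases after tail vein injection, and the 4 lines of L1Mic-R2, named 2T, 3T, 7T and 8T, produce polymetastases. All 7 lines share the same parental line, repeated passage through the lungs of mice and selection with G418. The L1-R2 lines all descend from 1 line, L1-R1, taken from a lung macrometastasis. The L1Mic-R2 lines all descend from 1 line, L1Mic-R1, taken from tumor cells of the macrometastasis-free part of the same lung. The founder line and the group therefore cannot be told apart. Each line came from the lung of a distinct animal and had 1 card. The p-values thus measure the spread between lines of 1 founder, together with the error of the measurement. The question was whether the family differs between the oligometastatic and the polymetastatic lines.

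MicroRNAs with a common seed can repress overlapping sets of messenger RNAs, so that the total of a family acts on shared targets. Members of this family have been reported to repress SMAD4, a mediator of TGF-β signaling. miR-301a and miR-454 are made from hairpins within SKA2, a gene for a protein of the spindle and kinetochore, whereas miR-301b and miR-130b come from neighboring hairpins on another chromosome.

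The mature sequences, from RefSeq on the GRCh38.p14 assembly, are shown because the seed defines the family and the remaining bases set its members apart. Letters run 5′ to 3′ and capitals mark the seed, bases 2 to 8. Entries were read for 4 of the 5 members, since the reference table had none for the mature miR-130a.
miR-130b: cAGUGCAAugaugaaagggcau
miR-301a: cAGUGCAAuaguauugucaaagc
miR-301b: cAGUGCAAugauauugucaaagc
miR-454: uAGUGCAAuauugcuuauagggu

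The 4 sequences had the seed AGUGCAA, which 6 of 2370 mature microRNAs of the reference table carry (0.253%). This count leaves out miR-130a, which had no entry. miR-301a and miR-301b differed at 2 of 23 positions, so that the assay of either could in part detect the other, and cross-detection was not tested. miR-130b had its first 12 bases in common with miR-301b and its first 9 with miR-301a. The mature miR-301a lies at chr17:59151149-59151171 and miR-454 at chr17:59137787-59137809, both on the minus strand. Their hairpins lie inside the span of SKA2 (chr17:59109857-59155186) with 13263 bases between them. miR-301b lies at chr22:21653025-21653047 and miR-130b at chr22:21653354-21653375, on the plus strand. Their hairpins are 245 bases apart within a transcribed pseudogene, LOC107985532. The hairpin of miR-130a (chr11:57641198-57641286) lies within the long non-coding RNA gene MIR130AHG. The table used gives spans of genes, so exon or intron is not stated.

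Expression was read as the threshold cycle (Ct), the PCR cycle at which fluorescence crosses a set threshold. A lower Ct stands for more RNA, and 1 cycle for a factor of 2. Detected microRNAs (Ct below 38) numbered 172 to 184 per L1-R2 line and 160 to 172 per L1Mic-R2 line. The card data carry a number, 1 to 3 in L1-R2 and 4 to 7 in L1Mic-R2, whose meaning the labels and the paper do not give. If it is the order of the cards, that order and the group cannot be told apart. Over the 7 lines raw Ct ranged from 15.97 to 16.77 for the small RNA U6, from 23.67 to 25.97 for RNU44 and from 18.81 to 20.97 for RNU48. As markers of cell type, the melanocytic microRNA miR-204 had a raw Ct between 25.79 and 26.92 in all lines, with an estimate of -0.59 for L1Mic-R2 over L1-R2 on the log2 scale (limma adjusted p = 0.208). Its paralog miR-211 was detected in all 3 L1-R2 lines and was Undetermined in 2 of the 4 L1Mic-R2 lines. With Undetermined wells at 40 its estimate was -6.57 (SE 2.97, limma adjusted p = 0.267), and the raw Ct of the groups overlapped. Of 7 epithelial microRNAs, miR-200b and miR-200c were detected in all lines, miR-200a in 4, miR-429 in 3 and miR-203 in 2, and miR-141 and miR-205 in 0. The estimates of the 4 epithelial microRNAs tested were lower in L1Mic-R2, with a median of -1.33 and 0 called (limma, 1 at an unadjusted p under 0.05). Of all 181 microRNAs tested, 83 had lower estimates. Those of miR-200a (SE 1.83) and miR-429 (SE 1.54) rest in part on wells at a Ct of 40, and their groups overlapped. Of 4 blood microRNAs, miR-142-5p and miR-451 were Undetermined in all lines, miR-142-3p was detected in 2 lines and miR-223 in 4, with an estimate of 3.07 (limma adjusted p = 0.245). The endothelial miR-126 was detected in all 7, with raw Ct from 28.71 to 35.06 and an estimate of 3.44 (SE 0.98, limma adjusted p = 0.104). The part of these cell types in the results below was not tested. In cell cultures, fewer cells that express a microRNA and less of it per cell cannot be told apart.

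All 5 members were detected in all 7 lines, and none passed the test between L1-R2 and L1Mic-R2. The estimates of 4 members were higher in L1Mic-R2, by 1.25- to 1.65-fold, and that of miR-301a was lower by 1.06-fold. For comparison, 9 of 181 microRNAs tested passed an adjusted p under 0.05 (4.97%), 6 of them higher in L1Mic-R2 (3.31% of the 181), and 35 an unadjusted p under 0.05 (19.3%), against 0 members for each (limma, adjusted over the 181). The raw Ct of the 2 groups overlapped for every member, and it did not overlap for 20.4% of the 181 microRNAs. After quantile normalization all 5 members overlapped, and 19.3% of microRNAs were without overlap. With only 5 members, counts of 0 cannot be told apart from these shares. The values below are quantile normalized Ct, as the study normalized its cards, unless raw Ct is named.

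miR-454, reported to repress SMAD4, was the earliest member to amplify. Its raw mean Ct ranked 21 of the 135 microRNAs detected in all 7 lines, from the lowest Ct, whereas the other members ranked from 94 to 126. An order between assays is not an order of molecules, since assays differ in efficiency. In L1-R2, normalized Ct of miR-454 was 24.78 (4T), 25.02 (3T) and 25.79 (8T). In L1Mic-R2 it was 24.95 (2T), 24.78 (3T), 24.78 (7T) and 25.02 (8T). Line 8T of L1-R2 had the least miR-454 and the other 6 lines lay close together. The means were 25.20 ± 0.53 (SD, n = 3) and 24.88 ± 0.12 (SD, n = 4), an estimate of 0.32 on the log2 scale (SE 0.27, 95% interval -0.34 to 0.97, limma adjusted p = 0.572). Without line 8T of L1-R2 the estimate was 0.02, and without line 4T of L1-R2 0.51.

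miR-301a, which has been reported to repress NKRF, an inhibitor of NF-κB, comes from the same host gene. Its normalized Ct was 30.91 (4T), 31.16 (3T) and 32.69 (8T) in L1-R2. It was 31.68 (2T), 32.25 (3T), 31.22 (7T) and 31.54 (8T) in L1Mic-R2. L1-R2 held both the 2 lines with the most and the 1 line with the least miR-301a, so that all 4 L1Mic-R2 lines lay inside the range of L1-R2. The means were 31.59 ± 0.97 (SD, n = 3) and 31.67 ± 0.43 (SD, n = 4), an estimate of -0.09 (SE 0.49, 95% interval -1.29 to 1.11, limma adjusted p = 0.928). Line 8T of L1-R2, lowest for miR-454, was also lowest for miR-301a, and without it the estimate was -0.65. The direction turned without line 4T of L1-R2 (0.23), line 3T of L1-R2 (0.15) or line 3T of L1Mic-R2 (0.097).

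miR-301b, the close sequence relative of miR-301a, was detected late. Normalized Ct was 32.91 (4T), 34.34 (3T) and 34.47 (8T) in L1-R2. In L1Mic-R2 it was 32.99 (2T), 33.31 (3T), 34.41 (7T) and 32.01 (8T). Each group held lines with early and lines with late Ct, with line 8T of L1Mic-R2 earliest and line 8T of L1-R2 latest. The means were 33.91 ± 0.86 (SD, n = 3) and 33.18 ± 0.99 (SD, n = 4), an estimate of 0.73 (SE 0.66, 95% interval -0.88 to 2.33, limma adjusted p = 0.598). It was 0.31 without line 8T of L1Mic-R2, 0.46 without line 8T of L1-R2, 1.15 without line 7T of L1Mic-R2 and 1.23 without line 4T of L1-R2.

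miR-130b, reported to repress the p53-induced gene TP53INP1, lies next to miR-301b. Its normalized Ct was 32.74 (4T), 32.46 (3T) and 32.20 (8T) in L1-R2. In L1Mic-R2 it was 31.37 (2T), 32.46 (3T), 31.68 (7T) and 32.34 (8T). Lines 2T and 7T of L1Mic-R2 had more miR-130b than any L1-R2 line, and lines 3T and 8T lay within the range of L1-R2. The means were 32.47 ± 0.27 (SD, n = 3) and 31.96 ± 0.52 (SD, n = 4), an estimate of 0.50 (SE 0.33, 95% interval -0.29 to 1.30, limma adjusted p = 0.457), the smallest p of the 5 members. Without line 2T of L1Mic-R2 it was 0.28.

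miR-130a, reported to promote angiogenesis through GAX and HOXA5, had the latest Ct of the family. Normalized Ct was 34.41 (4T), 34.91 (3T) and 34.85 (8T) in L1-R2. It was 35.25 (2T), 34.62 (3T), 32.55 (7T) and 33.73 (8T) in L1Mic-R2. The L1Mic-R2 lines lay on both sides of L1-R2, with line 7T highest in RNA and line 2T lowest of all 7. The means were 34.73 ± 0.27 (SD, n = 3) and 34.04 ± 1.17 (SD, n = 4), an estimate of 0.69 (SE 0.65, 95% interval -0.89 to 2.27, limma adjusted p = 0.598). Without line 7T of L1Mic-R2 it was 0.18, and without line 2T of L1Mic-R2 1.13.

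**Figure D1:**
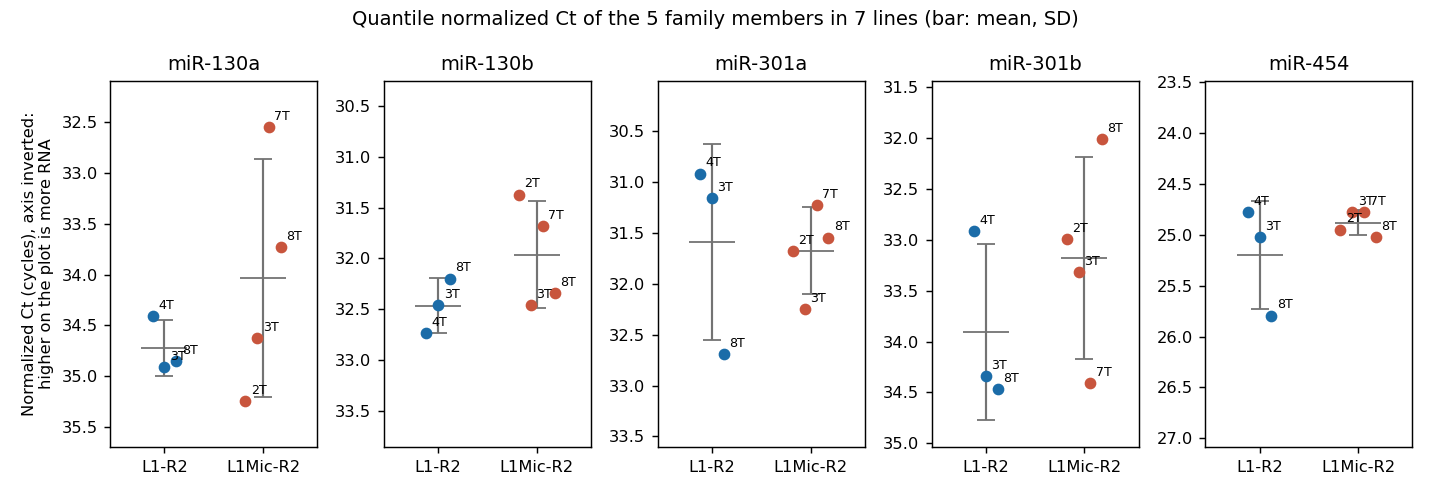
Quantile normalized Ct (cycles, inverted axis, so that higher points have more RNA) of each member in the 3 L1-R2 and 4 L1Mic-R2 lines. Points are lines, labelled by name, and bars are mean and SD. For every member the groups overlap, and the lowest Ct of miR-130a is that of line 7T of L1Mic-R2 at 32.55.

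An exact two-sided permutation test over the lines, which cannot go below 0.0286 here, gave p = 0.371 for miR-454, 0.886 for miR-301a, 0.371 for miR-301b, 0.257 for miR-130b and 0.4 for miR-130a. The intervals of the estimates reached up to 2.33 for miR-301b and down to -1.29 for miR-301a, the widest limits of the 5 members. They were narrower for miR-454 (-0.34 to 0.97) and miR-130b (-0.29 to 1.30). These 7 lines leave changes within the interval of each member undecided. The median of the 5 estimates was 0.50 and that of all 181 was 0.06, of which 54.1% were higher in L1Mic-R2.

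**Figure D2:**
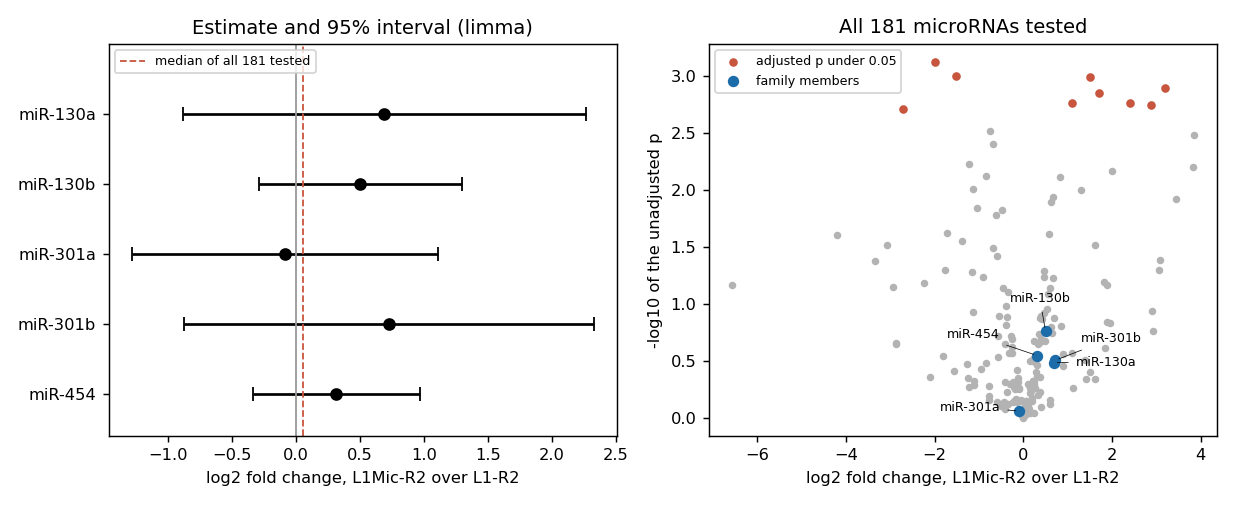
Left, log2 difference between L1Mic-R2 and L1-R2 (positive where L1Mic-R2 had more RNA) and its 95% limma interval for each member, with the median of all 181 microRNAs (0.06) as a dashed line. Right, the same estimate against -log10 of the unadjusted p for the 181 microRNAs, where the 9 that passed are red and the members blue. All 5 intervals include 0.

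In raw Ct the group means lay closer together for 4 members, and for miR-301a they differed by 0.09 cycles as after normalization. Group means of raw Ct were 25.10 ± 0.75 (SD, n = 3) in L1-R2 against 24.98 ± 0.35 (SD, n = 4) for miR-454, and 31.55 ± 0.79 against 31.64 ± 0.48 for miR-301a. For miR-301b they were 33.60 ± 0.71 against 33.37 ± 0.69, for miR-130b 32.21 ± 0.33 against 32.11 ± 0.72 and for miR-130a 34.45 ± 0.36 against 34.33 ± 1.14. The exact two-sided permutation p of these differences ranged from 0.657 for miR-301b to 0.971 for miR-130a. Over the 7 lines raw Ct spanned 2.55 cycles for miR-130a and 1.51 to 1.70 for the other members.

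Between scales that subtract 1 value per card or none, every assay shifts alike, so members and all microRNAs move together by construction. Quantile normalization, the main setting, shifts assays unequally. There the median estimates of the members and of all microRNAs tested were 0.50 and 0.06. Without normalization the median estimate of the members was 0.12 and that of all microRNAs tested was -0.25. Scaled to U6 the values were 0.18 and -0.19. Scaled to the mean of detected microRNAs they were 0.35 and -0.01, and scaled to RNU44 and RNU48 0.92 and 0.56. The direction of miR-301a depended on the scale, with an estimate of -0.09 without normalization and 0.72 with RNU44 and RNU48. In 1 setting a member reached an unadjusted p under 0.05, which was miR-454 with RNU44 and RNU48 (estimate 0.92), and over all settings the lowest limma adjusted p of a member was 0.236.

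**Figure D3:**
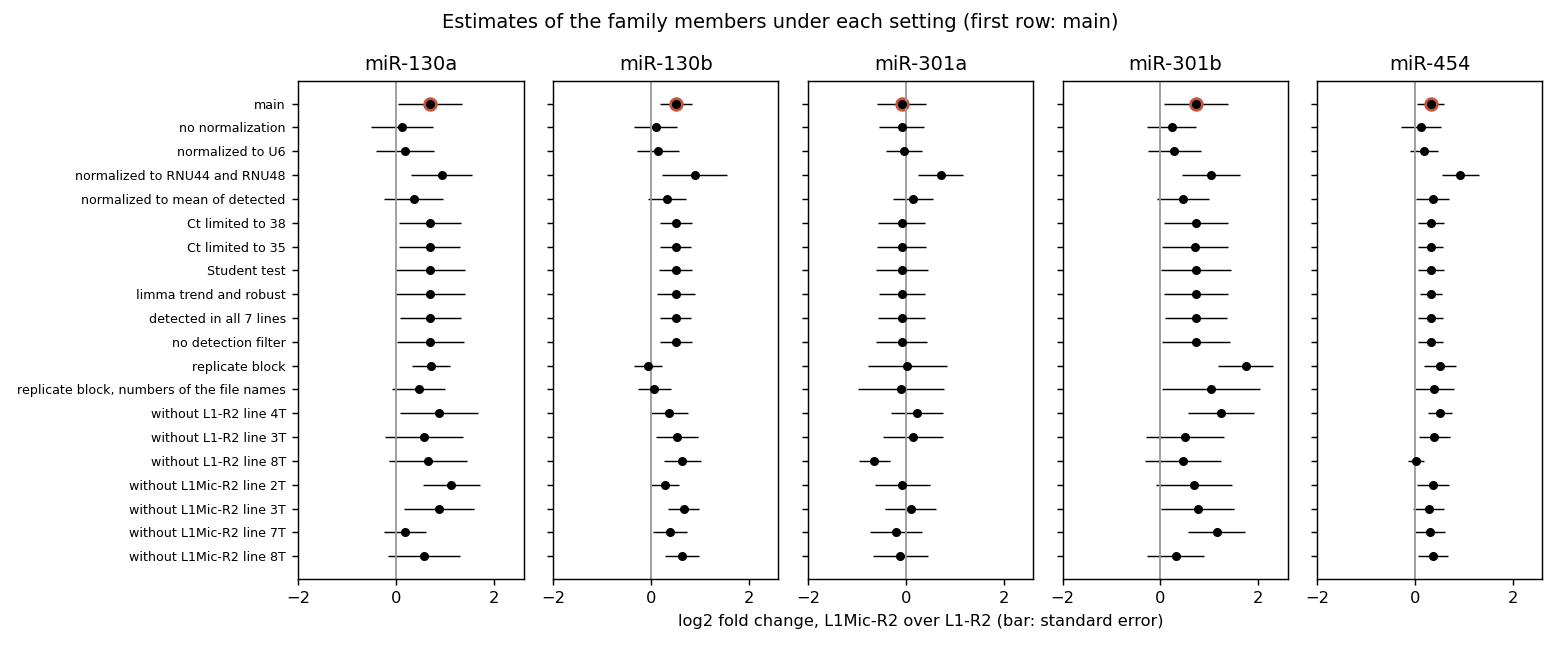
Estimates (log2, positive where L1Mic-R2 had more RNA, bars are standard errors) of each member under the main setting, in red, and under each alternative, including omission of each line. miR-130a, miR-301b and miR-454 stay above 0 in every row, miR-130b is at -0.071 when lines of the same number are paired (replicate block), and miR-301a lies on both sides of 0.

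Members differed in how much they varied between lines of one group. The within-group SD of normalized Ct was 0.94 for miR-301b, 0.92 for miR-130a, 0.69 for miR-301a, 0.44 for miR-130b and 0.35 for miR-454. The median over the 135 microRNAs detected in all lines was 0.381, and 90.4% of these had a smaller SD than miR-301b and 41.5% than miR-454. The members with the largest SD, miR-301b and miR-130a, were those with the latest Ct.

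Each genomic cluster was then followed from line to line by subtracting Ct of its 2 members on the same card, a difference that no scaling of the whole card alters. Raw Ct of miR-301a minus that of miR-454 was 6.49 (4T), 6.33 (3T) and 6.55 (8T) in L1-R2. It was 6.30 (2T), 7.21 (3T), 6.48 (7T) and 6.67 (8T) in L1Mic-R2. The 2 microRNAs of SKA2 had offsets between 6.30 and 6.67 in 6 lines, and line 3T of L1Mic-R2 had the highest. Its gap to the next L1Mic-R2 line was 0.59 of the range of that group, under the critical value of Dixon's test for an outlier. The SD over the 7 lines was 0.305 cycles. Without that line, left out after its value was seen, it was 0.138.

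Raw Ct of miR-301b minus that of miR-130b was 0.20 (4T), 1.93 (3T) and 2.04 (8T) in L1-R2. It was 1.82 (2T), 1.06 (3T), 2.43 (7T) and -0.29 (8T) in L1Mic-R2. Line 4T of L1-R2 and line 8T of L1Mic-R2 had relatively more miR-301b than the other lines. The SD was 1.03 cycles, 3.36 times that of the SKA2 pair. Among all 9045 pairs of the 135 microRNAs, whose median SD was 0.721, 6.31% had a smaller SD than the SKA2 pair and 73.8% a smaller SD than the pair of miR-301b and miR-130b. These pairs have microRNAs in common and the share is a description. Over the 10 pairs of members the SD ran from 0.305 for the SKA2 pair to 1.26 for miR-130a and miR-301b, and the other 8 lay at 0.726 or above. The later Ct of miR-301b and miR-130b moves with this difference, and its part was not tested.

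Neither offset differed between the groups beyond the spread of lines. For miR-301a minus miR-454 the L1-R2 mean was 6.46 ± 0.11 (SD, n = 3) and the L1Mic-R2 mean 6.67 ± 0.39 (SD, n = 4), with the groups overlapping (exact two-sided permutation p = 0.543, adjusted over the 2 pairs 0.886). For miR-301b minus miR-130b they were 1.39 ± 1.04 (SD, n = 3) and 1.26 ± 1.17 (SD, n = 4) (exact two-sided permutation p = 0.886, adjusted 0.886). After quantile normalization the SD of the SKA2 pair was 0.47, with 21.4% of pairs below it, so that its closeness was less marked on that scale.

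**Figure D4:**
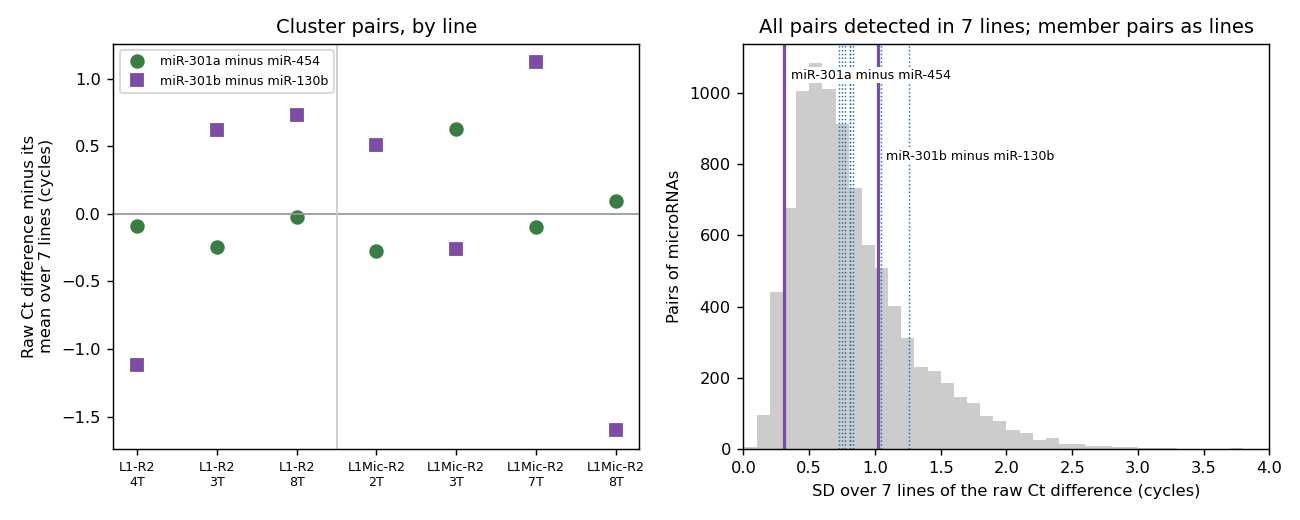
Left, raw Ct difference of the members of each genomic cluster in each line, minus its mean over the 7 lines (cycles). Right, the SD of that difference over the 7 lines for all 9045 pairs of microRNAs detected in every line, with the 10 member pairs as vertical lines (solid for the genomic clusters). The SKA2 pair lies at 0.305 and the pair of miR-301b and miR-130b at 1.03.

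The microRNAs with profiles most like those of the members were named by the root mean square difference of normalized Ct over the 7 lines, each profile centered on its mean, among 134 others. For miR-301a these were miR-652 (0.302 cycles), let-7f (0.383) and miR-454 (0.435). For miR-454 they were miR-484 (0.141), miR-340 (0.189) and miR-339-3p (0.207). At the same difference of 0.435 cycles, miR-301a ranked 49 for miR-454. The ranks differ because more microRNAs lay close to miR-454, with a median difference of 0.524 cycles, against 0.724 for miR-301a. In raw Ct, miR-454 ranked 1 for miR-301a and miR-301a ranked 7 for miR-454.

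For miR-130b the nearest were miR-31 (0.355 cycles), miR-19a (0.359) and miR-101 (0.360), and for miR-130a miR-363 (0.488), miR-125a-3p (0.576) and miR-196b (0.597). For miR-301b they were miR-671-3p (0.366), miR-27a (0.595) and miR-152 (0.665). miR-130b ranked 90 for miR-301b, and miR-301b ranked 117 for miR-130b. miR-19a and miR-152, which appear here, have seeds that overlap that of the family. Whether a related seed goes with a like profile was not tested.

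Related seeds were examined because such microRNAs can pair with overlapping target sites. Capitals again mark bases 2 to 8 of the RefSeq sequence.
miR-19a: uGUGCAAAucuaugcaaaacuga
miR-19b: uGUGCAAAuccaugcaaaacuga
miR-148b: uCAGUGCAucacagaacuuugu
miR-152: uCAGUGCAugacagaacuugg

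Each of these seeds has 6 bases in a row in common with AGUGCAA. A search of the reference sequences found 7 assayed microRNAs with such a seed, these 4 with miR-148a, miR-519a and miR-519c-3p. It covered the 326 of 377 assays that could be matched to a mature sequence, so others may be missing. Of these, miR-148a and miR-519c-3p were Undetermined in all lines and 5 were tested, of which 0 passed (limma, adjusted and unadjusted). miR-19a had an estimate of 0.41 (SE 0.23), miR-19b of -0.09 (SE 0.14), miR-152 of 0.25 (SE 0.32), miR-148b of 1.82 (SE 0.81, limma adjusted p = 0.267) and miR-519a, detected in 3 lines, of -1.25 (SE 1.54). The median of the 5 was 0.25, beside 0.50 for the family and 0.06 for all.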

How the data were processed

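MicroRNA was measured with TaqMan Human MicroRNA Array A cards, 1 per line, each with 381 assays. The authors deposited an average Ct per assay, in cycles on a log2 scale, which they read at a threshold of 0.3 and imported with SDS RQ Manager. The files used hold Ct before quantile normalization, with Undetermined wells at 40. Each member was measured in 1 well. No count of molecules is given, so the number of cards limits the precision. Groups and line names follow the labels of the samples. In the file names of L1-R2 the numbers 3T and 4T are swapped, within one group. The labels also name a mammary fat pad and SYBR, where the paper describes tail vein injection and TaqMan assays, which was followed here.

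Ct of all assays was quantile normalized and 40 minus Ct compared with limma 3.58.1 (lmFit, eBayes) in R 4.3.3, with Benjamini-Hochberg adjustment over the 181 microRNAs with a raw Ct below 38 in at least 3 lines. Differences of cluster members were compared by exact permutation of lines in Python 3.11.15. The functions were tested on simulated data. No 2 cards were copies of each other.

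Planned for naming were the 5 members, the controls, the 3 nearest microRNAs by profile and list members past an adjusted p under 0.05. No member of the lists reported here passed that limit. Cell type markers and microRNAs with related seeds were named after their values were seen. A further list of microRNAs is not reported here. Members and lists were chosen with earlier results of these data known. The muscle list had 2 microRNAs on the card, of which 0 could be tested. Alternatives were other normalizations, a highest Ct of 38 or 35, other tests and filters, leaving out single lines and a replicate block by line number.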

Additional observations from a re-analysis of the deposited data

How the results depend on the processing

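No member passed an adjusted p under 0.05 in any of the 19 alternative fits, and 7 of 100 estimates of single members reversed. Of the other 93, 33 could not show stability, since the alternative left the estimate unchanged (within 0.0005), and 60 moved and kept their direction. miR-301a reversed to 0.15 with scaling to the mean of detected microRNAs, 0.72 with RNU44 and RNU48, 0.028 with the replicate block, 0.23 without line 4T of L1-R2, 0.15 without line 3T of L1-R2 and 0.097 without line 3T of L1Mic-R2. Leaving out each line gave 0.18 to 1.13 for miR-130a, 0.28 to 0.66 for miR-130b, -0.65 to 0.23 for miR-301a, 0.31 to 1.23 for miR-301b and 0.02 to 0.51 for miR-454. The offset of miR-301b and miR-130b (-0.14 between groups) reversed to 0.14 without line 3T of L1-R2, 0.19 without line 8T of L1-R2 and 0.38 without line 8T of L1Mic-R2, with a range of -0.73 to 0.38. That of miR-301a and miR-454 (0.21) ranged from 0.03 to 0.33.

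The 9 calls over all microRNAs became 21 with the trend and robust options and 14 among microRNAs detected in all lines. They became 0 with RNU44 and RNU48, with Student's test and without a detection filter, where 37, 35 and 36 had an unadjusted p under 0.05. Without single lines they numbered 0 to 4. The background share therefore depends on the processing, and the cause was not tested.

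Each group has a 3T and an 8T line by label, which allows a replicate block of 2 pairs. Deviations of lines of the same number from their group means correlated at -0.04 and -0.20. With so few lines per group, these 2 values cannot decide whether such lines share more than a number. The block left 1 residual degree of freedom per microRNA and 0 calls under both sets of line numbers (19 and 27 at an unadjusted p under 0.05, limma). Under it miR-130b was -0.071, miR-130a 0.71, miR-301a 0.028, miR-301b 1.74 and miR-454 0.51, and the pairs differed by 0.50 for miR-301a minus miR-454 and -1.61 for miR-301b minus miR-130b. Of the 3 nearest microRNAs, miR-130b and miR-301a kept 1 each in raw Ct. The late Ct of miR-130a and miR-301b, and 1 well per line, limit what can be seen of these members.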
